A study of Mus musculus with 32 samples.

Results

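The 10 genes described here carry sulfur from methionine to cysteine and on to taurine in mouse liver and epididymal white adipose tissue (eWAT). Mat1a, Gnmt, Ahcy, Bhmt and Bhmt2 belong to the methionine cycle, Cbs and Cth to transsulfuration, Cdo1 and Csad to taurine synthesis, and Slc6a6 encodes the taurine transporter of the cell surface. They were selected by name out of the 47643 genes in the count table, at a time when their responses in these libraries were already known. The differences by diet and by corticosterone (cort) are therefore given as a description, with each change set against the spread between mice, and the p-values are not independent evidence.

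Libraries came from male C57BL/6 mice (C57BL/6J in the study's methods), 10 weeks of age, that spent 7 days on 1 of 4 regimens. Veh NPD mice drank 1% ethanol as the vehicle and ate a normal-protein diet with 20% of its energy from protein. Veh HPD mice drank the same vehicle and ate an isocaloric high-protein diet in which whey supplied 60% of the energy and corn starch was reduced. Cort NPD and Cort HPD mice ate the same diets with cort in the drinking water. The labels name no engineered allele. The study needed several cohorts of mice, and the labels do not say which mouse belonged to which. Because the HPD replaced starch with protein, the effects of more protein and of less carbohydrate cannot be told apart. Each group had 4 mice in each tissue, and 1 liver library, Veh HPD replicate 4, was left out of the fits, as the rule for this gene set asks.

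The methionine cycle activates methionine to S-adenosylmethionine, spends its methyl group, and returns the homocysteine that remains to methionine with a methyl group from betaine or folate. Homocysteine that leaves the cycle is joined to serine and cleaved to cysteine by transsulfuration. Cysteine is then oxidised to cysteine sulfinate, which is decarboxylated to hypotaurine and becomes taurine, the amino acid that liver joins to bile acids. Liver is the main organ of methionine breakdown, and adipocytes are also known to make taurine from cysteine.

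QuantSeq reads mark the 3′ end of a transcript, so a count does not grow with transcript length and CPM, counts scaled to the size of the library, can be compared between genes. Total counts ran from 8933307 to 17447524 in the 15 liver libraries and from 9794683 to 18057936 in the 16 eWAT libraries. The labels were checked against markers. The 6 hepatocyte markers (Alb, Apoa1, Ttr, Fgb, Serpina1c, Cps1) summed to 72872 to 257277 CPM in liver and to 33.7 to 88.8 CPM in eWAT, and the 5 adipocyte markers (Adipoq, Plin1, Lep, Cidec, Retn) to 11688 to 18770 CPM in eWAT and 2.68 to 11.9 CPM in liver. The left-out liver library held 701 CPM of H19, an imprinted transcript of fetal liver, against at most 18.3 CPM in the other liver libraries. Epididymis markers summed to 5730 CPM in eWAT Cort HPD replicate 4, where the median over eWAT libraries was 0.735 CPM, so eWAT results are also given without that library where a call changes. Skeletal muscle markers summed to 349 CPM in liver Cort NPD replicate 3, where the median over liver libraries was 0.231 CPM. In bulk tissue, fewer cells of a type and less RNA per cell cannot be told apart. Fkbp5, a glucocorticoid target outside the pathway, rose with cort on the NPD by 2.23 ± 0.48 (log2, SE) in liver and by 1.74 ± 0.39 in eWAT, with adjusted p = 0.0094 and 0.016 in edgeR's quasi-likelihood test. On the HPD it did not pass, at 1.15 ± 0.51 in liver (adjusted p = 0.19) and 0.60 ± 0.38 in eWAT (adjusted p = 0.45). Of the other glucocorticoid targets followed, Tsc22d3 passed in neither tissue with cort, and Per1 and Zbtb16 did not pass on the NPD. Cort on the HPD lowered Zbtb16 in liver (-2.80 ± 0.66) and eWAT (-1.24 ± 0.33) and Per1 in liver (-1.59 ± 0.33). Liver Cort HPD replicate 1 also stood apart from its group, with a mean chi-squared per gene of 119 to 154 against the other 3 libraries, which differed from each other by 15.4 to 25.7.

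Promoter sequence is shown for 2 of the members, Csad and Bhmt2, with the nearest matches to general promoter elements. RefSeq (GRCm38.p6) gives 2 starts for Csad, and each line below is the stretch upstream of a start that holds no annotated exon, read 5′ to 3′ on the minus strand. Capitals mark a CCAAT box (CCAAT or ATTGG) or a GC box (GGGCGG or CCGCCC), which 33.8% and 32.7% of all 32851 RefSeq promoters held in the 250 bases before the start.
Csad, upstream start, chr15:102205087-102205228: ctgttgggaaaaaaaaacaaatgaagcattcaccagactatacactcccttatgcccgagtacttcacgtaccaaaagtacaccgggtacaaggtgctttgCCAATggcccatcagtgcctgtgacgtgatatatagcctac
Csad, downstream start, chr15:102189059-102189293: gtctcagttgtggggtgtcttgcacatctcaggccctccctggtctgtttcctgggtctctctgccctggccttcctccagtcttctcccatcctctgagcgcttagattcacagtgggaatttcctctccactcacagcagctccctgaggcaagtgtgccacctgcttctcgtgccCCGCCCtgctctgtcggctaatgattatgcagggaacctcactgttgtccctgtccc
Bhmt2, the 130 bases up to Dmgdh, chr13:93674303-93674432: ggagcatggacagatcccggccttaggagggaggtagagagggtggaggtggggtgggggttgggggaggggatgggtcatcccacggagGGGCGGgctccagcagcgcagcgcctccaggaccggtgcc

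The upstream stretch of Csad lay inside an intron of Zfp740, a gene on the opposite strand, and the downstream stretch lay inside Csad itself. Bhmt2 and Dmgdh, which encodes the enzyme that oxidises the dimethylglycine released by the betaine reaction, began 130 bases apart and pointed away from each other. The Bhmt2 promoter was rich in G and C, at 74.0% over 250 bases against a median of 52.4% for all promoters, and the upstream Csad promoter stood at 44.8%. Both strands of the window from 250 bases before to 50 bases after the start were also searched for a full glucocorticoid response element (found in 0.475% of all promoters), a single arm of it (AGAACA, in 18.97%) and an amino acid response element (TGATGNAAT, in 0.965%). Of the 6 members with a promoter that was searched (Csad, Cbs, Bhmt, Bhmt2, Gnmt and Ahcy), Gnmt held a match to the full element, 19 bases after its start, and the windows of the others held none of the 3. Cth, Mat1a, Slc6a6 and Cdo1 were not searched.

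In liver, all 10 genes were expressed and tested, and together they took 0.905% to 1.04% of all counts in Veh NPD, 1.02% to 1.14% in Veh HPD, 1.34% to 1.63% in Cort NPD and 1.53% to 1.75% in Cort HPD. Gnmt, Mat1a and Cdo1 were the most abundant, with medians of 3373, 2907 and 3812 CPM over the 15 libraries, and Slc6a6 was the least, at 49.5 CPM. Cort on the NPD changed 8 of the 10 genes, with 6 higher and 2 lower, at an adjusted p under 0.05 in edgeR's quasi-likelihood test across 12391 genes. By comparison, 12.6% of all genes tested were called in that comparison, 6.84% higher and 5.79% lower. Cort on the HPD changed 6 of the 10 genes, 5 higher and 1 lower, where 9.89% of all genes were called, 4.75% higher and 5.14% lower. Diet changed fewer members. The HPD lowered 1 gene under veh, where 0.169% of all genes were called, 0.105% higher and 0.0646% lower, and it raised 1 and lowered 1 under cort, where 5.88% were called, 3.08% higher and 2.8% lower. No member was called for the interaction of diet and cort, against 0.113% of all genes. At an unadjusted p under 0.05, 2 members (Cdo1 and Cth) passed that test, as did 1496 of all 12391 genes. At the same unadjusted threshold, 5 members and 1165 of all genes passed for the HPD under veh. Under cort, 4 members and 2644 of all genes did so for the HPD. Neither DESeq2 nor limma voom called any member for the interaction. Scaling by library totals in place of TMM moved the median of all liver genes by -0.24 for cort on the HPD and by -0.17 for the HPD under cort, and the share of calls that were higher went from 48.0% to 17.8% and from 52.4% to 23.2%.

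**Figure D1:**
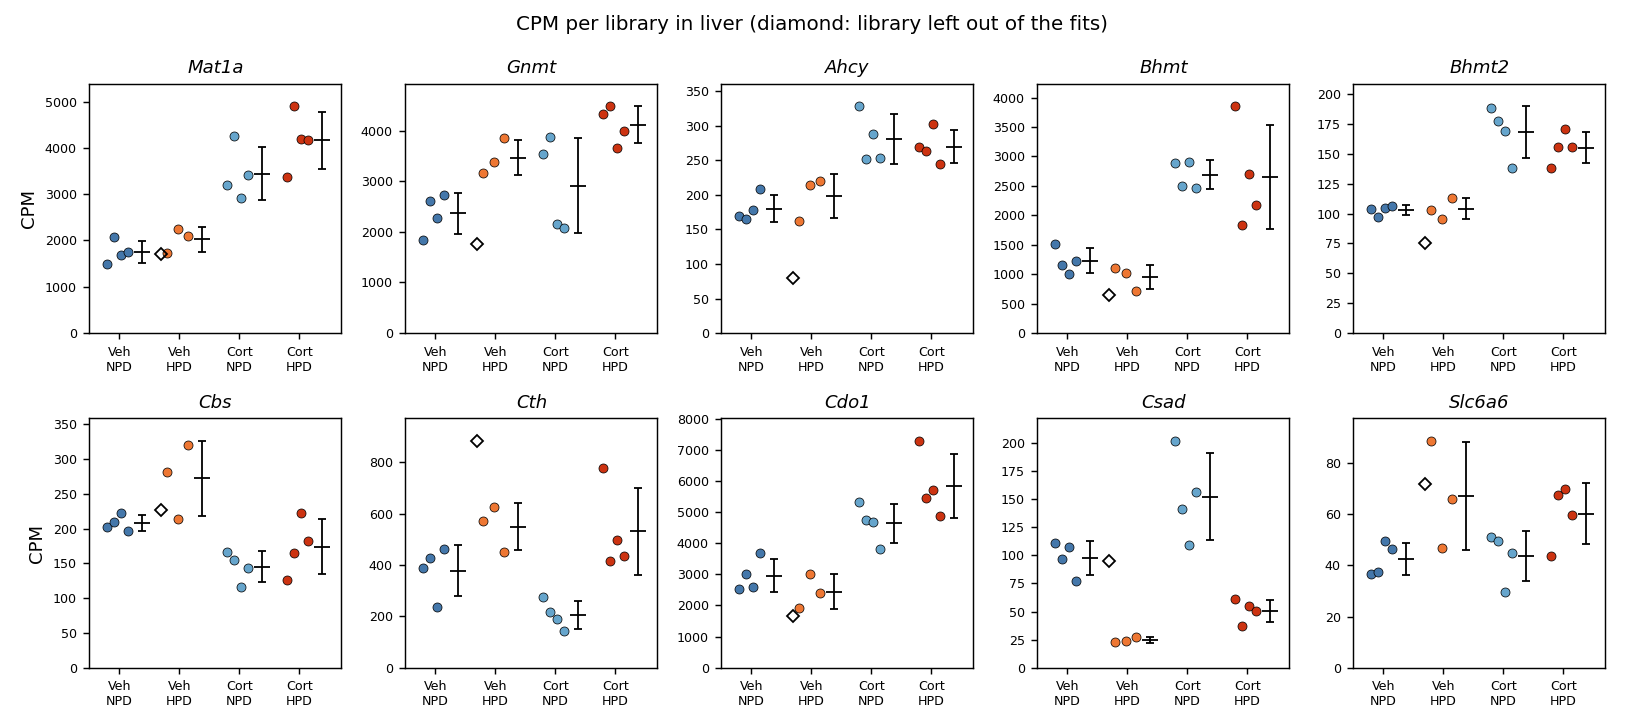
CPM of the 10 genes in each liver library, by group; points are mice, and the bar beside them gives the mean ± SD of the libraries in the fits (n = 4, and n = 3 in Veh HPD). The open diamond is the left-out Veh HPD library, scaled with all 16 liver libraries. Among the libraries in the fits, Csad sits lowest in both HPD groups, and Mat1a, Bhmt and Cdo1 are higher in both cort groups than in the veh group on the same diet. The diamond for Csad, at 94.7 CPM, lies inside the Veh NPD range.

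Mat1a, the liver methionine adenosyltransferase that makes S-adenosylmethionine, measured 1487, 2077, 1695 and 1753 CPM in Veh NPD and 3205, 4257, 2907 and 3411 CPM in Cort NPD. On the HPD it measured 1732, 2245 and 2093 CPM under veh and 3380, 4899, 4195 and 4181 CPM under cort. Every cort library was higher than every veh library. The increase was 0.97 ± 0.17 (log2, SE) on the NPD (1.97-fold, adjusted p = 0.00044) and 1.04 ± 0.19 on the HPD (2.06-fold, adjusted p = 0.00088). Diet differences were small, 0.21 ± 0.18 under veh (adjusted p = 0.77) and 0.27 ± 0.17 under cort (adjusted p = 0.37). Of the 6 hepatocyte markers, cort on the NPD raised Cps1 and lowered Apoa1 and Fgb, and cort on the HPD raised Alb, Ttr and Serpina1c. Their sum ran from 82643 to 117150 CPM in Veh NPD, 72872 to 84415 in Veh HPD, 107740 to 126382 in Cort NPD and 145749 to 257277 in Cort HPD. Macrophage markers (Adgre1, Cd68, Csf1r) summed to 42.7 to 60.3 CPM in Veh NPD and 17.5 to 31.2 CPM in Cort NPD, and to 37.2 to 64.5 CPM in Veh HPD and 16.6 to 26.5 CPM in Cort HPD. Red blood cell markers (Hba-a1, Hbb-bs, Alas2) summed to 4054 to 5957 CPM in Cort HPD, 1513 to 2680 CPM in Veh HPD, 1095 to 2725 CPM in Cort NPD and 1118 to 2383 CPM in Veh NPD. The part of these shifts in the liver changes of all members was not tested.

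Gnmt, glycine N-methyltransferase, which disposes of excess methyl groups, did not pass the test in any liver comparison. Its level was 1831, 2616, 2281 and 2726 CPM in Veh NPD and 3172, 3373 and 3852 CPM in Veh HPD, groups that did not overlap, and the difference was 0.55 ± 0.21 (adjusted p = 0.37). In Cort NPD the 4 mice split, with 3548, 3877, 2145 and 2082 CPM, and in Cort HPD they lay at 4329, 4479, 3663 and 3998 CPM. The HPD difference under cort was 0.50 ± 0.20 (adjusted p = 0.14), and the cort differences were 0.30 ± 0.20 on the NPD and 0.25 ± 0.21 on the HPD. The Mat1a to Gnmt count ratio within a library, which needs no scaling, had a median of 0.77 in Veh NPD, 0.55 in Veh HPD, 1.23 in Cort NPD and 1.07 in Cort HPD.

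Ahcy, which hydrolyses S-adenosylhomocysteine to homocysteine, rose with cort on the NPD. It measured 169, 165, 178 and 208 CPM in Veh NPD against 328, 252, 289 and 254 CPM in Cort NPD, with no overlap (0.64 ± 0.15, 1.56-fold, adjusted p = 0.0050). On the HPD the values were 162, 215 and 220 CPM under veh and 269, 264, 302 and 245 CPM under cort, which also did not overlap, but the difference of 0.44 ± 0.16 missed the threshold (adjusted p = 0.082). DESeq2 gave adjusted p = 0.036 for it. With all 16 liver libraries the NPD call was lost at the same size (0.65, adjusted p = 0.087).

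Bhmt, betaine-homocysteine methyltransferase, which remethylates homocysteine with betaine, had the largest estimated cort increase of the 10 genes on both diets. It measured 1513, 1156, 1009 and 1224 CPM in Veh NPD and 2890, 2496, 2914 and 2457 CPM in Cort NPD (1.13 ± 0.20, 2.19-fold, adjusted p = 0.00066). On the HPD it measured 1106, 1013 and 720 CPM under veh and 3853, 1831, 2709 and 2181 CPM under cort (1.48 ± 0.23, 2.79-fold, adjusted p = 0.00021). The cort and veh groups did not overlap on either diet. The highest value came from Cort HPD replicate 1, and without that library the increase was 1.24 (adjusted p = 0.00020). The HPD differences were -0.37 ± 0.22 under veh and -0.02 ± 0.20 under cort, with adjusted p = 0.62 and 0.96.

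Bhmt2, which uses S-methylmethionine as its methyl donor, lies 17758 bases from Bhmt on chromosome 13 and on the same strand. It held 104, 97.3, 104 and 106 CPM in Veh NPD and 189, 177, 169 and 138 CPM in Cort NPD (0.71 ± 0.13, adjusted p = 0.00092). On the HPD the values were 103, 95.6 and 113 CPM under veh and 138, 156, 171 and 156 CPM under cort (0.58 ± 0.14, adjusted p = 0.012). Cort and veh libraries were apart on both diets. With either Veh HPD replicate 1 or replicate 2 removed the HPD increase (0.56 and 0.54) was no longer called (adjusted p = 0.054 and 0.060), nor was it when libraries were scaled by their totals (0.34, adjusted p = 0.17). A fit of only the 2 groups compared did not call it either (0.57, adjusted p = 0.0503). The count ratio of Bhmt to Bhmt2 had medians of 11.7 in Veh NPD, 10.6 in Veh HPD, 16.3 in Cort NPD and 14.9 in Cort HPD, where replicate 1 had 27.8 and the others 11.8 to 15.9. No 50-base word of the last 500 bases was shared between the 2 genes, but 32.2% of the words of Bhmt and 24.4% of those of Bhmt2 also occurred in other annotated genes, where reads could be split.

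Cbs, cystathionine beta-synthase, which joins homocysteine to serine as the first step of transsulfuration, fell with cort. It measured 203, 210, 223 and 197 CPM in Veh NPD and 167, 155, 116 and 144 CPM in Cort NPD, with no overlap (-0.52 ± 0.17, adjusted p = 0.047). With the HPD its level was 281, 214 and 321 CPM under veh and 127, 165, 222 and 183 CPM under cort, where 1 library of each group overlapped (-0.64 ± 0.18, adjusted p = 0.026). Both calls lay close to the threshold. The call on the NPD was lost without any 1 of Veh NPD replicates 1, 2, 3 and 4, Cort NPD replicates 2, 3 and 4 and Cort HPD replicates 2 and 4, with changes from -0.55 to -0.44 and adjusted p from 0.055 to 0.15. The call on the HPD was lost without Veh HPD replicate 1 or 3 or Cort HPD replicate 1 or 2, with changes from -0.63 to -0.51 and adjusted p from 0.052 to 0.14. With all 16 liver libraries both were lost (-0.51, adjusted p = 0.087, and -0.57, adjusted p = 0.054). The HPD call was also lost with only the 2 groups compared (-0.65, adjusted p = 0.078), and the NPD call with library totals (-0.54, adjusted p = 0.078). Of the 3′ words of Cbs, 7.10% occurred in other genes.

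Cth, cystathionine gamma-lyase, which releases cysteine from cystathionine, was the member called higher on the HPD than on the NPD under cort. In Cort NPD it measured 275, 217, 188 and 142 CPM, and in Cort HPD 777, 414, 496 and 435 CPM, so that every Cort HPD library was above every Cort NPD library (1.37 ± 0.24, 2.58-fold, adjusted p = 0.0016). Without Cort HPD replicate 1, which held the 777 CPM, it was 1.12 (adjusted p = 0.0049). Under veh it measured 387, 427, 237 and 462 CPM on the NPD and 572, 627 and 450 CPM on the HPD, a difference of 0.54 ± 0.25 that missed the threshold (adjusted p = 0.51). Cort lowered Cth on the NPD by 0.88 ± 0.23 on the log2 scale (adjusted p = 0.017), with 1 veh library inside the range of the cort group, and on the HPD the difference was -0.05 ± 0.25 (adjusted p = 0.93). The interaction, 0.83 ± 0.34, did not pass (adjusted p = 0.34), so the cort change is not shown to differ between diets. The call on the NPD was lost without Veh NPD replicate 4 (-0.77, adjusted p = 0.055).

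Cdo1, cysteine dioxygenase, which oxidises cysteine to cysteine sulfinate and commits it to taurine or sulfate, rose with cort. It measured 2534, 3004, 2591 and 3695 CPM in Veh NPD and 5309, 4733, 4696 and 3812 CPM in Cort NPD (0.65 ± 0.18, 1.57-fold, adjusted p = 0.021). With the HPD its level was 1914, 3019 and 2405 CPM under veh and 7280, 5453, 5711 and 4886 CPM under cort (1.25 ± 0.20, 2.38-fold, adjusted p = 0.00035). No cort library overlapped the veh group on the same diet. The interaction was 0.60 ± 0.27 (adjusted p = 0.36). Diet differences were -0.27 ± 0.20 under veh and 0.33 ± 0.18 under cort, with adjusted p = 0.71 and 0.31. The call on the NPD was lost without Veh NPD replicate 1, 2 or 3 or Cort NPD replicate 1 or 3, with increases from 0.57 to 0.65 and adjusted p from 0.051 to 0.079, and with all 16 liver libraries (0.65, adjusted p = 0.066).

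Csad, cysteine sulfinate decarboxylase, which makes hypotaurine, was lower on the HPD and higher with cort. Veh NPD livers held 111, 96.6, 107 and 77.1 CPM and Veh HPD livers 22.6, 23.9 and 27.3 CPM, a fall of 1.99 ± 0.21 on the log2 scale (3.98-fold lower, adjusted p = 3.0e-05). Cort NPD livers held 202, 141, 109 and 157 CPM and Cort HPD livers 60.9, 37.6, 54.6 and 50.3 CPM, a fall of 1.58 ± 0.18 (2.99-fold lower, adjusted p = 2.2e-05). No HPD library among the 15 reached the lowest NPD library under the same drink. Cort raised Csad by 0.64 ± 0.18 on the NPD (adjusted p = 0.021) and by 1.05 ± 0.20 on the HPD (2.07-fold, adjusted p = 0.0017). The Veh and Cort groups overlapped on the NPD but not on the HPD, and the interaction was 0.41 ± 0.27 (adjusted p = 0.55).

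Several liver calls depend on leaving out Veh HPD replicate 4. That library held 1853 Csad counts, or 94.7 CPM, inside the Veh NPD range and above the other 3 Veh HPD livers, and its Cth, at 882 CPM scaled with all 16 libraries, was above the 777 CPM that was the highest of the 15. With it, the Csad fall under veh became -1.23 ± 0.38 (adjusted p = 0.19), the cort increase on the HPD 0.30 ± 0.38 (adjusted p = 0.67) and that on the NPD 0.64 ± 0.38 (adjusted p = 0.34). The fall under cort remained called (-1.57 ± 0.38, adjusted p = 0.038). Members called then numbered 4 in place of 8 for cort on the NPD, 4 in place of 6 for cort on the HPD and 0 in place of 1 for the HPD under veh. Among the libraries in the fits, the Csad call for cort on the NPD was lost without Veh NPD replicate 2 or 4 or Cort NPD replicate 1 or 4, with increases from 0.47 to 0.62 and adjusted p from 0.052 to 0.092.

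Within each library, Cdo1 counts exceeded Csad counts by a ratio that needs no scaling. Among the 15 liver libraries in the fits this ratio separated the diets, but the left-out HPD library did not follow. The ratio was 22.9, 31.1, 24.2 and 47.9 in Veh NPD and 26.3, 33.5, 43.1 and 24.3 in Cort NPD. It was 84.7, 127 and 88.1 in Veh HPD and 120, 145, 105 and 97.2 in Cort HPD. These 7 HPD livers were above all 8 NPD livers, and the veh and cort ranges overlapped on each diet. The left-out Veh HPD replicate 4 had a ratio of 17.7, below every NPD liver, so with all 16 liver libraries the diets overlapped.

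**Figure D2:**
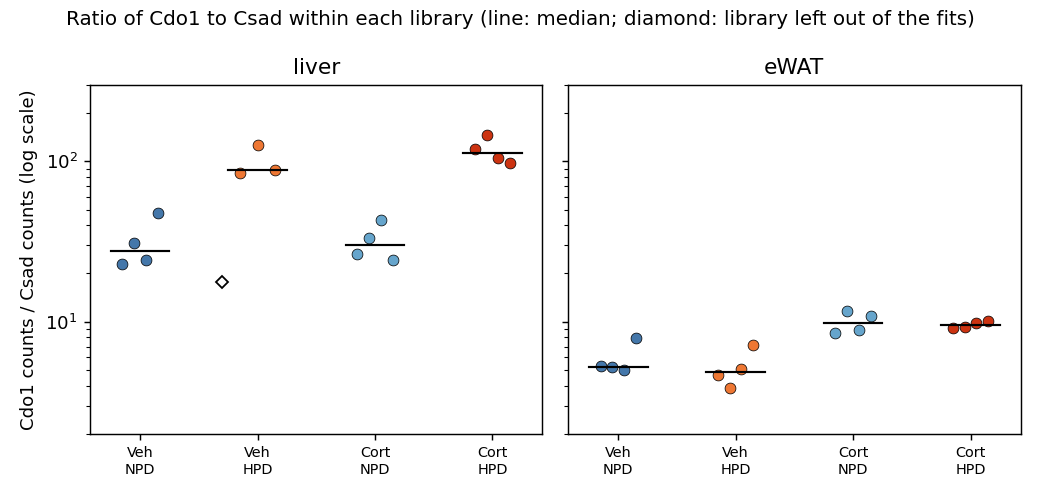
Ratio of Cdo1 to Csad counts within each library, on a log axis, for liver and eWAT by group; points are mice, lines are medians, and the open diamond is the left-out Veh HPD liver. Without that library, at 17.7, the liver HPD groups lie at 84.7 or above and the NPD groups at 47.9 or below, and in eWAT the cort groups lie at 8.49 or above and the veh groups at 7.92 or below.

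Slc6a6, the transporter that takes up taurine, did not pass the test in liver. It measured 36.8, 37.6, 49.5 and 46.3 CPM in Veh NPD, 88.7, 46.7 and 66.1 CPM in Veh HPD, 51.0, 49.5, 29.8 and 44.9 CPM in Cort NPD and 43.7, 67.5, 69.9 and 59.9 CPM in Cort HPD. The HPD difference was 0.66 ± 0.21 under veh (adjusted p = 0.27) and 0.46 ± 0.20 under cort (adjusted p = 0.18), and the groups overlapped. Cort differences were 0.04 ± 0.20 on the NPD and -0.16 ± 0.21 on the HPD.

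Among the members, those of the taurine end were the most abundant in eWAT. This describes the members chosen and not the whole pathway. Of 14 further genes of the methionine cycle and methyl transfer, from the list described below, 13 passed the filter on low counts in eWAT. Cdo1 (1494 to 3246 CPM), Csad (229 to 455 CPM) and Slc6a6 (60.9 to 117 CPM) were abundant, whereas Cth (2.56 to 15.1 CPM), Cbs (3.65 to 27.8 CPM) and Ahcy (1.86 to 8.20 CPM) were low. Csad in every eWAT library was above every liver library, whose highest value was 202 CPM, although the tissues were scaled separately. Gnmt reached at most 45 counts (2.92 CPM), Mat1a at most 32, Bhmt had 8 counts in 1 library, and Bhmt2 had 0 in all 16 libraries, where a count of 0 allows up to 3. The filter on low counts therefore left 7 members, and Mat1a, Bhmt and Bhmt2 were not tested in eWAT. Of the hepatocyte markers, Fgb, Ttr, Serpina1c and Cps1 had at most 28 counts in any eWAT library, Apoa1 9 to 51 and Alb 494 to 1149. Veh HPD replicate 4 held the most Mat1a (32), Gnmt (45), Cps1 (20), Fgb (19) and Ttr (24) counts. The other hepatocyte markers peaked elsewhere, Serpina1c in Cort HPD replicate 3 (28), Alb in Veh HPD replicate 2 (1149) and Apoa1 in Veh NPD replicate 1 (51). The sum of the hepatocyte markers was highest in Cort HPD replicate 2, at 88.8 CPM, against 78.3 CPM in Veh HPD replicate 4. The part of hepatocyte RNA in these values was not tested.

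Cort on the NPD changed 2 of the 7 eWAT members, both higher, where 7.98% of the 15187 genes tested were called, 4.05% higher and 3.93% lower. Cort on the HPD changed 2, 1 higher and 1 lower, where 6.09% were called, 3.46% higher and 2.63% lower. The HPD changed none under veh, where 0.0593% of all genes were called (0.0132% higher, 0.0461% lower), and none under cort, where 0.487% were called (0.204% higher, 0.283% lower). The interaction called no member and 0.0132% of all genes. At an unadjusted p under 0.05 in edgeR, 5 members passed for the HPD under veh, 1 under cort and 0 for the interaction. Of all 15187 genes, 1219, 1490 and 784 passed at that threshold. DESeq2 called 1, 1 and 0 members in these 3 comparisons and limma voom 0, 1 and 0. Scaling by library totals took the share of calls that were higher from 50.7% to 36.1% for cort on the NPD and from 41.9% to 53.4% for the HPD under cort. Markers of other cell types moved with cort in this tissue. The 3 stromal markers (Pdgfra, Dpt, Col1a1) summed to 777 to 1185 CPM in Veh NPD and 463 to 589 CPM in Cort NPD, and the 3 skeletal muscle markers (Acta1, Myh4, Ckm) to 60.7 to 197 CPM and 10.3 to 23.4 CPM, and the 5 adipocyte markers to 11688 to 15562 CPM and 14028 to 16205 CPM. Of the adipocyte markers, cort on the NPD lowered Adipoq (-0.58 ± 0.14) and raised Lep (1.49 ± 0.37) and Cidec (0.45 ± 0.14). On the HPD the stromal sums were 358 to 890 CPM under veh and 450 to 652 CPM under cort, and the muscle sums 17.4 to 85.2 CPM and 11.8 to 19.4 CPM. The adipocyte sums on the HPD were 12646 to 18770 CPM under veh and 11912 to 13480 CPM under cort. There cort lowered Adipoq (-0.81 ± 0.14) and raised Lep (1.47 ± 0.37), and Cidec was not called (0.18 ± 0.14). Red blood cell markers summed to 9799 to 20480 CPM in Cort HPD, 4082 to 7294 CPM in Veh HPD, 2885 to 5133 CPM in Cort NPD and 3056 to 5638 CPM in Veh NPD. Their part in the member changes was not tested.

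**Figure D3:**
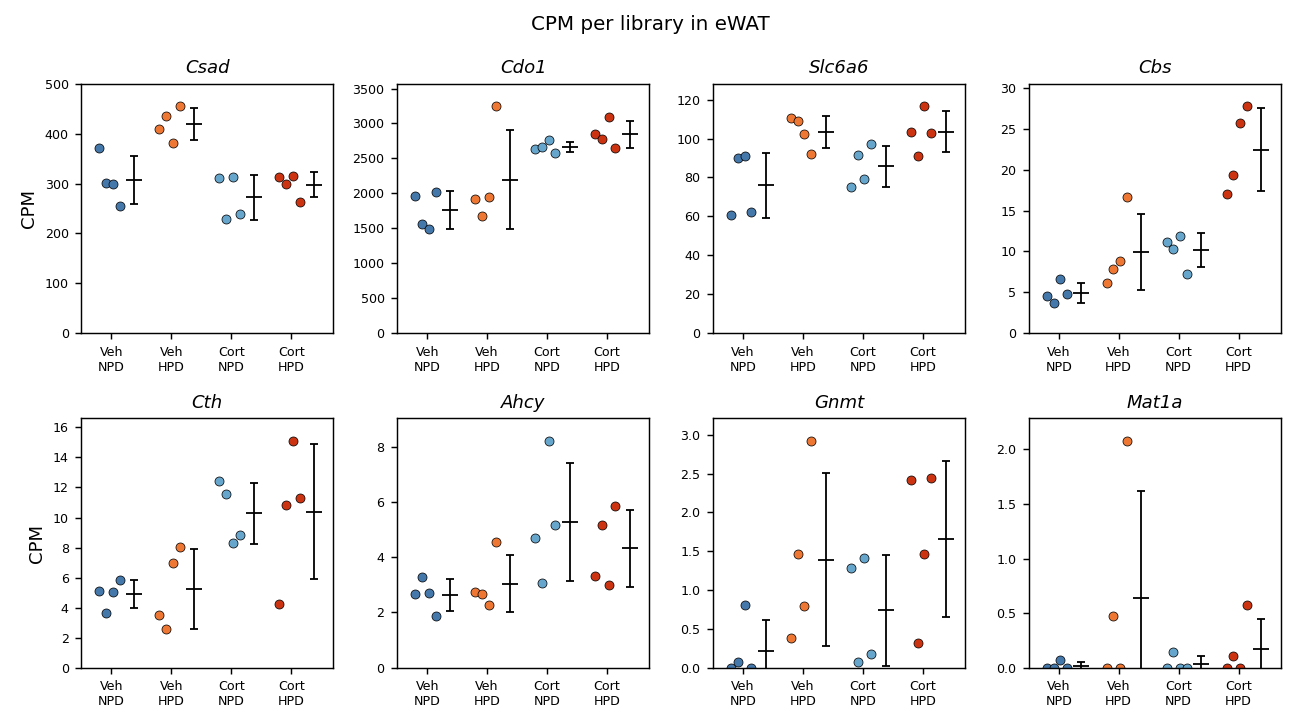
CPM of 8 genes in each eWAT library, by group; points are mice and the bar beside them gives the mean ± SD (n = 4). Cdo1 and Csad lie above 200 CPM throughout, Gnmt and Mat1a stay under 3 CPM, and Cbs steps up with cort and is highest in Cort HPD.

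Cbs rose with cort in eWAT on both diets. It measured 4.51, 3.65, 6.59 and 4.75 CPM in Veh NPD and 11.2, 10.3, 11.9 and 7.21 CPM in Cort NPD (1.06 ± 0.29, 2.08-fold, adjusted p = 0.018). On the HPD it measured 6.16, 7.89, 8.87 and 16.7 CPM under veh and 17.0, 19.4, 25.7 and 27.8 CPM under cort (1.19 ± 0.28, 2.28-fold, adjusted p = 0.0084). Neither pair of groups overlapped, and these values rest on 49 to 432 counts a library. The 13 other genes that share 7.10% of the 3′ words of Cbs held 94184 counts over all libraries, against 2692 of Cbs in eWAT. The part of shared reads in the Cbs values was not tested. Under veh the HPD difference was 1.02 ± 0.28 (adjusted p = 0.20), with overlap. Cort HPD was also above Cort NPD in every library, by 1.14 ± 0.28, which missed the threshold (adjusted p = 0.062). That difference was called without Veh HPD replicate 1 (adjusted p = 0.048) or 4 (adjusted p = 0.014), by DESeq2 (adjusted p = 0.018) and by limma voom (adjusted p = 0.033). The cort call on the NPD was lost without Veh NPD replicate 1 or 2 or Cort NPD replicate 1 or 3, with increases from 0.95 to 1.02 and adjusted p from 0.052 to 0.065, and under limma voom (1.07, adjusted p = 0.061).

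Cth was low in eWAT, at 5.13, 3.65, 5.04 and 5.86 CPM in Veh NPD and 12.4, 11.6, 8.28 and 8.82 CPM in Cort NPD. The groups did not overlap, and the difference of 1.06 ± 0.36 missed the threshold (adjusted p = 0.067). HPD mice had 3.49, 2.56, 6.97 and 8.04 CPM under veh and 4.28, 10.8, 15.1 and 11.3 CPM under cort (0.98 ± 0.36, adjusted p = 0.11). Without Cort HPD replicate 1, which held the 4.28 CPM, the latter became 1.24 (adjusted p = 0.031) and the former 1.05 (adjusted p = 0.041). Without Veh HPD replicate 4 they became 1.26 (adjusted p = 0.036) and 1.06 (adjusted p = 0.048). The diet differences were 0.09 ± 0.36 under veh and 0.02 ± 0.35 under cort.

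Cdo1 in eWAT measured 1960, 1564, 1494 and 2025 CPM in Veh NPD and 2635, 2664, 2767 and 2583 CPM in Cort NPD, with no overlap (0.60 ± 0.15, 1.51-fold, adjusted p = 0.014). On the HPD it measured 1920, 1680, 1943 and 3246 CPM under veh and 2849, 2773, 3099 and 2653 CPM under cort (0.37 ± 0.15, adjusted p = 0.17). The single high veh library, Veh HPD replicate 4, decided the latter result. Without it the increase was 0.62 (adjusted p = 0.00037). That library also had the highest adipocyte marker sum of the eWAT libraries, 18770 CPM, where the median of Veh HPD was 13554 CPM. The part of this in its Cdo1 value was not tested. The increase on the NPD was 0.52 without Veh NPD replicate 3 (adjusted p = 0.059).

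Csad in eWAT did not fall on the HPD. It measured 372, 301, 299 and 256 CPM in Veh NPD and 410, 435, 381 and 455 CPM in Veh HPD, where every HPD library was higher, by 0.45 ± 0.13 (adjusted p = 0.23, and 0.029 in DESeq2). Under cort it measured 310, 229, 313 and 238 CPM on the NPD and 313, 299, 316 and 263 CPM on the HPD (0.13 ± 0.13, adjusted p = 0.81). Cort lowered it on the HPD by 0.50 ± 0.13 on the log2 scale (1.41-fold lower, adjusted p = 0.020), with no overlap, and the difference on the NPD was -0.17 ± 0.13 (adjusted p = 0.52). It was no longer called when Veh HPD replicate 2 was removed (-0.48, adjusted p = 0.054), nor when Cort HPD replicate 4, with its epididymis markers, was removed (-0.44, adjusted p = 0.064). The Cdo1 to Csad ratio in eWAT was 4.99 to 7.92 in Veh NPD, 3.86 to 7.13 in Veh HPD, 8.49 to 11.6 in Cort NPD and 9.10 to 10.1 in Cort HPD, so that here it separated cort from veh and not the diets.

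Slc6a6 in eWAT measured 60.9, 89.9, 91.2 and 62.1 CPM in Veh NPD and 110, 109, 102 and 92.2 CPM in Veh HPD, a difference of 0.44 ± 0.14 (adjusted p = 0.28) without overlap. Under cort it measured 75.1, 91.4, 79.0 and 97.4 CPM on the NPD and 103, 91.2, 117 and 103 CPM on the HPD (0.27 ± 0.14, adjusted p = 0.54). Ahcy measured 2.66, 3.28, 2.69 and 1.86 CPM in Veh NPD and 4.69, 3.05, 8.20 and 5.16 CPM in Cort NPD (1.01 ± 0.41, adjusted p = 0.15), and the difference on the HPD was 0.50 ± 0.41 (adjusted p = 0.56). Neither gene passed the test in eWAT. Gnmt, also among the members tested there, held 0 to 45 counts a library and was not called. It enters the counts of members tested, and no change is given for it at these low counts.

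**Figure D4:**
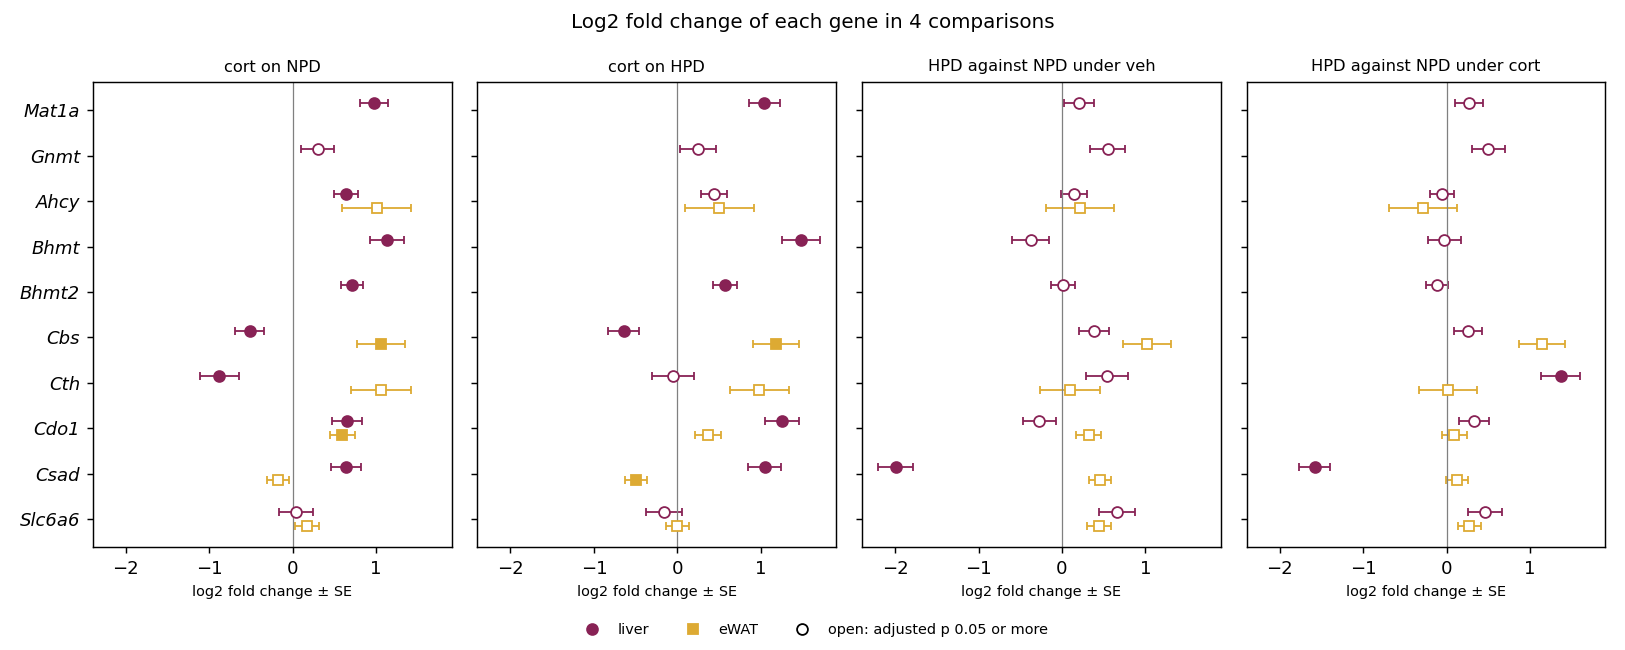
Log2 fold change ± SE of each gene in 4 comparisons, for liver (circles) and eWAT (squares); filled symbols have adjusted p under 0.05, and Mat1a, Gnmt, Bhmt and Bhmt2 are left out for eWAT. With cort, Cbs lies left of 0 in liver and right of it in eWAT, and the HPD moves Csad to -1.99 and -1.58 in liver but not in eWAT.

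The tissues were compared directly in 1 fit of both, as the liver change minus the eWAT change. The labels do not say whether a liver and an eWAT library came from the same mouse, and this fit treated all libraries as independent. It also shared the estimate of spread between tissues, although the coefficient of variation was 0.23 in liver and 0.37 in eWAT when fitted alone. Its adjusted p-values rest on both choices. Differences for cort on the HPD and for the HPD under veh were added after the values had been seen. For cort on the NPD, 3.85% of the 16482 genes were called, and the members called were Cth (-1.90 ± 0.46, adjusted p = 0.015), Cbs (-1.53 ± 0.32, adjusted p = 0.0041) and Csad (0.85 ± 0.23, adjusted p = 0.028). For cort on the HPD, 3.12% were called, and the members were Cbs (-1.87 ± 0.32, adjusted p = 0.00061) and Csad (1.51 ± 0.25, adjusted p = 0.00027). Csad was also the member whose HPD change differed between tissues, by -2.40 ± 0.25 under veh (adjusted p = 4.2e-07, where 0.0425% of all genes were called) and by -1.75 ± 0.23 under cort (adjusted p = 5.5e-05, where 1.23% were called). Cdo1 responses were not shown to differ between tissues (0.09 ± 0.27 on the NPD, and 0.85 ± 0.28 with adjusted p = 0.089 on the HPD), although the latter was called without eWAT Veh HPD replicate 2 (adjusted p = 0.045) and with all 16 liver libraries (1.02, adjusted p = 0.041). No value is given for Mat1a, Bhmt and Bhmt2, which had too few eWAT counts. The median of all genes lay between -0.12 and 0.06 in these 4 differences. The Csad difference for cort on the NPD was lost without any 1 of 14 libraries. These were eWAT Veh NPD replicates 1, 2 and 3, Veh HPD replicates 1 and 2, Cort NPD replicates 2 and 4 and Cort HPD replicates 1, 2 and 3, and liver Veh NPD replicates 2 and 4 and Cort NPD replicates 1 and 4, with values from 0.69 to 0.84 and adjusted p from 0.050 to 0.11. With all 16 liver libraries the Csad differences were 0.81, 0.80 and -1.68 for cort on the NPD, cort on the HPD and the HPD under veh, none of them called (adjusted p = 0.33, 0.31 and 0.094).

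A list of 48 further genes of methionine, cysteine, glutathione and taurine metabolism was followed beside the members, and it too was drawn up with earlier results known. In liver 45 of them were tested. With cort 6 rose and 3 fell on the NPD (20.0% of those tested), and 9 rose and 3 fell on the HPD (26.7%), against the 12.6% and 9.89% of all genes given above. The HPD changed none under veh (5 at an unadjusted p under 0.05) and 3 under cort (6.67%, where 5.88% of all genes were called), and no interaction was called (9 unadjusted). Of all 12391 liver genes, 1165 passed unadjusted for the HPD under veh and 1496 for the interaction. In eWAT 44 were tested. With cort 6 rose and 1 fell on the NPD (15.9%, against 7.98% of all genes), 8 rose and 1 fell on the HPD (20.5%, against 6.09%), and none was called for diet or the interaction (7, 5 and 4 at an unadjusted p under 0.05 for the HPD under veh, under cort and the interaction, in edgeR). Of all 15187 eWAT genes, 1219, 1490 and 784 passed unadjusted in these comparisons. The median log2 change of the list was 0.01 and 0.12 in liver for cort on the NPD and HPD, and 0.16 and 0.25 in eWAT, where the medians of all genes lay between -0.024 and -0.0025.

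Dmgdh, the gene that starts 130 bases from Bhmt2, was one of those that rose. In liver it measured 268, 251, 250 and 231 CPM in Veh NPD and 696, 564, 619 and 621 CPM in Cort NPD (1.32 ± 0.13, adjusted p = 4.6e-07). HPD livers held 235, 213 and 199 CPM under veh and 373, 344, 400 and 353 CPM under cort (0.77 ± 0.14, adjusted p = 0.0013). Unlike Bhmt2, whose diet difference under cort was -0.12 ± 0.13, Dmgdh was lower in every Cort HPD liver than in every Cort NPD liver (-0.77 ± 0.13, adjusted p = 0.0011). Whether the 2 genes differed in that response was not tested. In eWAT Dmgdh, like Bhmt2, was at or near 0 counts.

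**Figure D5:**
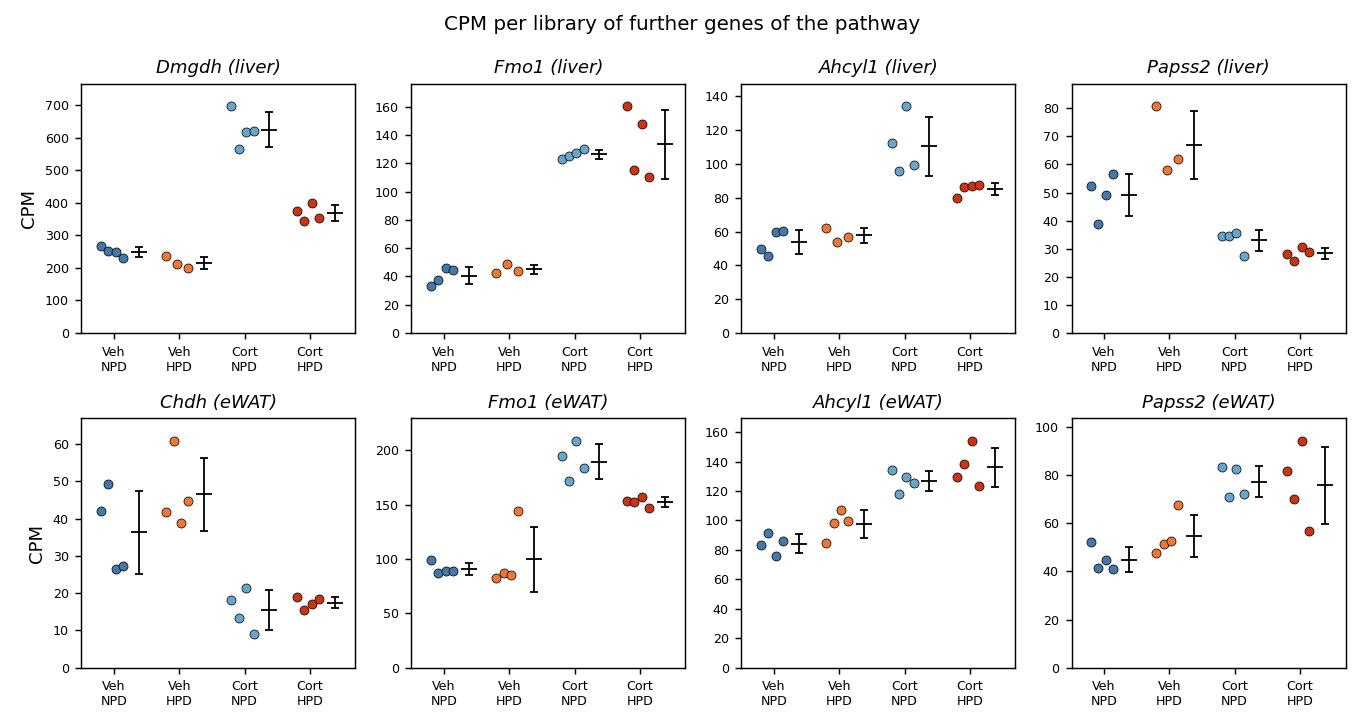
CPM of further pathway genes in each liver library (top) and eWAT library (bottom), by group; points are mice and the bar beside them gives the mean ± SD (n = 4, and n = 3 in liver Veh HPD). In liver Dmgdh is highest in Cort NPD (564 to 696 CPM) and Papss2 lowest in the cort groups, and in eWAT Chdh is lowest in the cort groups.

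Fmo1, a flavin monooxygenase that can oxidise hypotaurine to taurine, had the smallest p of the list for cort on both diets in liver. It rose there from 33.2, 37.8, 46.1 and 44.5 CPM to 123, 125, 127 and 130.3 CPM on the NPD (1.65 ± 0.15) and from 42.5, 48.5 and 44.1 CPM to 160.2, 115, 148 and 111 CPM on the HPD (1.57 ± 0.16). Its cort increase in eWAT was 1.06 ± 0.14 with the NPD and 0.61 ± 0.14 with the HPD (adjusted p = 0.0080). Ahcyl1, an inactive relative of Ahcy, rose with cort on both diets in liver (1.04 ± 0.14 and 0.56 ± 0.15) and in eWAT (0.59 ± 0.11 and 0.48 ± 0.11), its liver value on the HPD being named after the values were seen. Nnmt, which spends methyl groups on nicotinamide, rose in liver by 1.27 ± 0.23 and 1.34 ± 0.25, and in eWAT it was called on the HPD (0.62 ± 0.12). Odc1, the first enzyme of polyamine synthesis, rose in liver by 1.17 ± 0.18 and 1.28 ± 0.20, at 5.65 to 13.7 CPM in the group means. Ethe1, which oxidises sulfide-derived persulfide in mitochondria, rose there by 0.63 ± 0.18 and 1.12 ± 0.20.

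The liver genes that fell with cort were Tst, a mitochondrial sulfurtransferase (-0.82 ± 0.14 on the NPD and -0.69 ± 0.15 on the HPD), Papss2, which makes the sulfate donor of sulfation (-0.58 ± 0.15 and -1.24 ± 0.16), Mri1 of methionine salvage on the NPD (-0.71 ± 0.24) and Chac1, which degrades glutathione, on the HPD (-1.91 ± 0.43). Gss, glutathione synthetase, rose with cort on the HPD (0.94 ± 0.18) and was higher on the HPD than on the NPD under cort (0.61 ± 0.17, adjusted p = 0.032). Slc6a13, a transporter of taurine and gamma-aminobutyric acid, was lower on the HPD under cort in liver (-0.49 ± 0.13, adjusted p = 0.026). Its eWAT level rose with cort on both diets (0.71 ± 0.16 and 0.84 ± 0.17). The eWAT gene that fell was Chdh, choline dehydrogenase, which makes betaine. It measured 42.1, 49.2, 26.6 and 27.4 CPM in Veh NPD against 18.3, 13.4, 21.3 and 9.08 CPM in Cort NPD (-1.22 ± 0.23, adjusted p = 0.0010), and fell by 1.41 ± 0.23 on the log2 scale on the HPD. Sardh, Fmo1 and Ahcyl2 (0.79 ± 0.15 and 0.53 ± 0.15, the latter named after the values were seen) rose with cort in eWAT on both diets, Papss2 on the NPD (0.78 ± 0.15) and Gamt and Nnmt on the HPD (0.96 ± 0.16 and 0.62 ± 0.12).

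The genes lie apart in the genome except for the Bhmt pair. Csad spans chr15:102176999-102204724, Bhmt chr13:93616675-93637961, Bhmt2 chr13:93655720-93674302, Cth chr3:157894248-157925077 and Cbs chr17:31608894-31637238, all on the minus strand of GRCm38, and Mat1a spans chr14:41105035-41124412 on the plus strand. All are protein coding. Zfp740 overlaps Csad on the other strand with at most 198 counts in a liver library and 437 in an eWAT library, and whether the counting used strand is not given in the sources used here. On the same strand, Gm43314 overlaps Cth with at most 59 counts in a liver library and 16 in an eWAT library, and Gm45828 overlaps Slc6a6 with at most 7 and 55. The last 500 bases of Csad, Cdo1, Cth, Mat1a, Gnmt and Slc6a6 held no 50-base word of another annotated gene. Those of Ahcy shared 32 of 451 words with Gm4737, which had 429 counts over all libraries.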

How the data were processed

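The authors deposited 1 table of raw counts per Ensembl gene, with 1 column for each of 32 QuantSeq 3′ libraries. The submitters' processing notes name GRCm38 and mm10, and the aligner and the counting program are not given in the sources used here. Symbols and positions came from GENCODE M21. The 10 members, the further list and the markers were chosen with earlier results of these data known. Named from the further list were the called genes, at most 6 per comparison and direction, by p. Counts were tested with edgeR 4.0.16 (quasi-likelihood, TMM, filterByExpr with a minimum count of 10) in R 4.3.3, in 1 fit of 4 groups per tissue and 1 fit of both tissues, with Benjamini-Hochberg adjustment over all genes. CPM used TMM-scaled totals, and error is SE for log2 changes. DESeq2 1.42.0 and limma 3.58.1 (voom) were alternatives. The labels call replicates separate samples and give them numbers. Across 48 replicate pairs none was identical, and the smallest mean chi-squared per gene was 15.4. Scripts were tested on simulated data. Sequences are RefSeq's. All p-values are two-sided and, since nothing ties the samples to cages or cohorts, measure only the spread between these samples.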

Additional observations from a re-analysis of the deposited data

Results flagged for a closer look

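In 9 cases a value stood apart. The first 2 concern 1 library among the 4 of its group by Dixon's criterion, which was computed for 59 groups of 4 libraries and marks about 1 in 20 by chance. Cdo1 measured 3246 CPM in eWAT Veh HPD replicate 4, where the other 3 libraries lay between 1680 and 1943 CPM. Gnmt measured 0.807 CPM (12 counts) in eWAT Veh NPD replicate 3, where the others held 0 or 1 count. The other 7 are differences between liver and eWAT in the same comparison, each tested in the fit of both tissues. For cort on the NPD the liver change minus the eWAT change was 0.85 for Csad, -1.90 for Cth and -1.53 for Cbs. For cort on the HPD it was 1.51 for Csad and -1.87 for Cbs. For the HPD it was -2.40 under veh and -1.75 under cort, both for Csad. The differences for cort on the HPD and for the HPD under veh were chosen after the values had been seen.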

How the results depend on the processing

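Of 125 member changes with a test, 28 were called, and 13 of these were called in the same direction under every alternative run. The other 15 lost the call under at least 1, and none reversed. Of the 97 not called, 8 were called under some alternative, and 36 changed sign under some alternative without being called under either. The 125 include the tissue differences, also those of Mat1a, Bhmt and Bhmt2, which had too few eWAT counts for a value. None of those was among the 28, and the 8 include the Mat1a difference for cort on the HPD. The number of liver members called for cort on the NPD was 8, and 4 with all 16 liver libraries. With cort on the HPD it was 6, and 4 with all 16 or with only the 2 groups compared, 5 with library totals and 7 with DESeq2. For the HPD under veh in liver it was 1, and 0 with all 16. In eWAT it was 1 in place of 0 for the HPD under cort with library totals, without a filter, with DESeq2, with limma voom and with only the 2 groups compared, 1 in place of 0 for the HPD under veh with DESeq2, and 1 in place of 2 for cort on the NPD with limma voom. Leaving out 1 library at a time gave 5 to 8 liver members for cort on the NPD and 4 to 6 on the HPD, and in eWAT 1 to 3, 1 to 4 and 0 to 1 for cort on the NPD, cort on the HPD and the HPD under cort. The lowest liver number on the NPD came without Veh NPD replicate 2 or 4. In eWAT, 1 member was left for cort on the NPD without Veh NPD replicate 1, 2 or 3 or Cort NPD replicate 1 or 3. For cort on the HPD 1 was left without Veh HPD replicate 2 or Cort HPD replicate 4, and 4 were called without Veh HPD replicate 4. The HPD under cort gave 1 without Veh HPD replicate 1 or 4. For the tissue difference of cort on the NPD the range was 2 to 3. The cause of these changes was not tested. Counts over all genes moved by more than 1.5 times in the following cases. For the HPD under veh in liver, 21 genes became 56 without a filter, 111 with DESeq2 and 7 with all 16 libraries, and the liver interaction went from 14 to 23 with library totals, 72 without a filter, 125 with DESeq2, 9 with RLE factors, 7 with voom and 1 with all 16. With all 16 libraries, 1565 liver genes for cort on the NPD became 998, and 729 for the HPD under cort became 371. In eWAT the HPD under veh went from 9 to 16 with library totals, 30 without a filter, 129 with DESeq2, 19 with voom and 4 with 2 groups, the HPD under cort from 74 to 195 with DESeq2 and 165 with 2 groups, and the interaction from 2 to 0 with library totals or voom, 4 without a filter, 7 with DESeq2 and 9 with the replicate block. For the tissue differences, 635 genes for cort on the NPD became 423 with voom, and 202 for the HPD under cort became 80 with voom, 87 with all 16 and 365 with library totals. Library totals also took the share of higher calls in the tissue differences from 35.6% to 19.8% for cort on the HPD and from 31.2% to 9.59% for the HPD under cort.

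Same-numbered libraries within a tissue showed little common deviation (30 correlations, from -0.13 to 0.25, 3 over 0.1). Between liver and eWAT libraries of the same group and number, the correlations ran from -0.0040 to 0.11. In groups this small, such values cannot show whether a number stands for a shared mouse, cage or cohort. The main fits used no pairing. With the replicate block, 7 members in place of 8 were called for cort on the NPD in liver (Cbs was lost), and the member counts in the other comparisons did not change.

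Of the 16 eWAT libraries, 10 held more than the floor of 3 counts for Gnmt, 3 for Mat1a, 1 for Bhmt and 0 for Bhmt2, so small changes in these genes were not detectable there.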
